A study of Mus musculus with 36 samples.

Results

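Solute carriers are the membrane proteins that move sugars, amino acids, peptides, ions, metals, vitamins, lipids and nucleotides across the surface of a cell and across the membranes of its organelles. The genes described here are the solute carrier genes expressed in mouse duodenal organoids. They were chosen by name and by level: a row of the count table had to be named Slc followed by a number, could not be a pseudogene, and had to average 10 CPM or more (its count scaled to one common library total) over 36 libraries. Of 34197 rows, 366 carried such a name. The rule left out 2 pseudogene rows, 2 ileal bile acid carrier genes by name and 170 rows below the level, and kept 192 genes of 44 numbered families. Of the 192, 189 encode carriers or carrier subunits. The other 3 share the name only: Slc9a3r1 is a scaffold of the brush border, Slc4a1ap an adaptor, and Slc7a6os a gene on the opposite strand of Slc7a6. Because the genes were selected on their level in these libraries, their levels are given as a description. The genes nearest to the limit were Slc25a53 at 10.2 CPM and Slc47a1 at 11.6 CPM inside it, and Slc13a2 at 9.88 CPM and Slc8b1 at 9.76 CPM outside it.

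Organoids grown from the duodenum of C57BL/6 mice, male or virgin female and older than 8 weeks, were kept under flow in a microfluidic chip, and 20 to 50 organoids were harvested for each sample without enrichment for any cell type. DAPT, an inhibitor of the gamma-secretase that cleaves Notch receptors, was given in pulses with a period of 90 min (1.38 µM), 130 min (2 µM) or 170 min (2.6 µM, with 2 µM also named), and the control was DMSO. Treatments lasted 24, 48 or 72 h, with 3 replicates in each of the 12 groups. All groups grew in medium with EGF, Noggin and R-spondin, and the 24, 48 and 72 h groups had been passaged 3, 2 and 1 days before the experiment began, so a longer time in the chip went with a shorter time before it, and the 2 cannot be told apart. The dose differed with the period, and the labels leave unsaid whether DMSO was pulsed and whether each replicate was a culture or animal of its own. The p-values therefore measure the spread between these samples, which may be technical. The series asked whether setting the period of Notch-driven oscillations shifts the makeup of cell types.

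The absorptive cell of the duodenum, the enterocyte, carries nutrient carriers on its brush border, which faces the lumen, and another set on its basolateral side, which faces the blood. Sodium-coupled carriers such as SGLT1 (Slc5a1) and the neutral amino acid carrier B0AT1 (Slc6a19) draw nutrients in against their gradient, and facilitative carriers such as GLUT2 (Slc2a2) let them leave. Other families serve every cell: the SLC25 carriers exchange metabolites and nucleotides across the inner mitochondrial membrane, and the SLC35 carriers bring nucleotide sugars into the Golgi and endoplasmic reticulum, where glycans are built.

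Library totals ran from 482741 to 1447330 counts with a median of 958749, and the solute carrier genes took 1.585 to 1.99% of them. Sort-seq counts each molecule once near its 3′ end, so CPM values were not divided by transcript length. Markers of enterocytes (21 listed, 19 with enough counts to be tested) were present in every library, with a mean log2 CPM between 5.31 and 8.59 and a median of 7.4. In 3 libraries that level was lower than in all others: replicate 2 of 130 min at 72 h (5.31), replicate 3 of DMSO at 48 h (5.99) and replicate 2 of 170 min at 72 h (6.11). The same 3 libraries held 1974.6 CPM or less of summed Paneth markers, where the median library held 2666 CPM, and 165.4 CPM or less of enteroendocrine markers, where the median was 531.8 CPM and the range 21.87 to 1282 CPM. Low levels of those 2 marker sets did not set the 3 libraries apart. Replicate 1 of 130 min at 72 h held 1155.5 CPM of Paneth and 27.8 CPM of enteroendocrine markers at an enterocyte marker level of 7.11. Replicate 1 of 170 min at 72 h held 1222.6 and 64.4 CPM at a level of 6.97. In summed crypt stem and cycling markers, replicate 2 of 170 min at 72 h (1576 CPM) was the lowest of all libraries. Replicate 2 of 130 min at 72 h (1789.7 CPM) came next. Replicate 3 of DMSO at 48 h held 2261.9 CPM of them, where the median library held 2432 CPM. In enterocyte markers the other 33 libraries lay at 6.73 or above, and replicate 3 of 130 min at 24 h was the highest. Summed markers of goblet cells (2259 to 4093 CPM) and Paneth cells (1156 to 4099 CPM) were also present throughout. Of 12 markers of fibroblasts, immune cells and endothelium none had enough counts to be tested, and their summed level was 0 to 14.8 CPM. In such bulk samples fewer cells of a type and less RNA per cell cannot be told apart.

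Mitochondrial carriers formed the largest class, with 35 genes and 22.4% of all solute carrier counts. The adenine nucleotide exchanger Slc25a5 averaged 403 CPM, the phosphate carrier Slc25a3 320 CPM, and the peroxisomal carrier Slc25a17 and the glutathione carrier Slc25a39 both 292 CPM. Slc25a4, the adenine nucleotide exchanger that dominates in heart and muscle, averaged 146 CPM. The summed level of the class ran only from 3735 to 4182 CPM over the 36 libraries. The 20 SLC35 genes, led by the GDP-fucose carrier Slc35c1 at 294 CPM and the UDP-N-acetylglucosamine carrier Slc35a3 at 231 CPM, summed to between 1932 and 2262 CPM.

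Metal and heme carriers numbered 27 and took 14.9% of the counts. The zinc importers Slc39a4, which sits on the brush border, and Slc39a1 averaged 298 and 290 CPM. The iron exporter ferroportin, Slc40a1, averaged 197 CPM, the copper importer Slc31a1 167 CPM, and the brush border iron importer DMT1, Slc11a2, 161 CPM. The manganese exporter Slc30a10 was lower, at 40.4 CPM. The 23 amino acid carriers took 13% of the counts. Slc3a2, the heavy chain shared by several exchangers, averaged 307 CPM, the glutamine carrier Slc38a2 262 CPM and the cationic amino acid carrier Slc7a1 218 CPM. The imino acid carrier Slc6a20a (143 CPM), the cystine carrier subunit Slc7a9 (110 CPM) and Slc6a19 (56.3 CPM) represented the brush border. Slc3a1, the heavy chain that pairs with Slc7a9, and the nucleoside carrier Slc28a2 were the members of a panel of 41 named carriers that the level left out.

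Among 15 sugar carriers, Slc5a1 averaged 183 CPM, Slc2a2 156 CPM, and the fructose carrier of the brush border, Slc2a5, 29.9 CPM. The housekeeping glucose carrier Slc2a1 averaged 111 CPM and the sugar exporter Slc50a1 135 CPM. Among ion carriers, the sodium, potassium and chloride cotransporter Slc12a2 of the basolateral membrane was the most abundant solute carrier gene of all, at 460 CPM. The bicarbonate carrier Slc4a7 averaged 213 CPM and the chloride and bicarbonate exchanger Slc26a3 193 CPM. The peptide carrier PEPT1, Slc15a1, averaged 54.3 CPM, the taurine carrier Slc6a6 242 CPM, the choline carrier-like gene Slc44a1 179 CPM, the nucleoside carrier Slc29a1 166 CPM, the lactate carrier Slc16a1 137 CPM and the fatty acid carrier Slc27a4 115 CPM. Organic cation and anion carriers were led by Slc22a18 at 102 CPM. Of the 192 genes, 67 averaged 100 CPM or more and 35 averaged under 30 CPM.

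**Figure D1:**
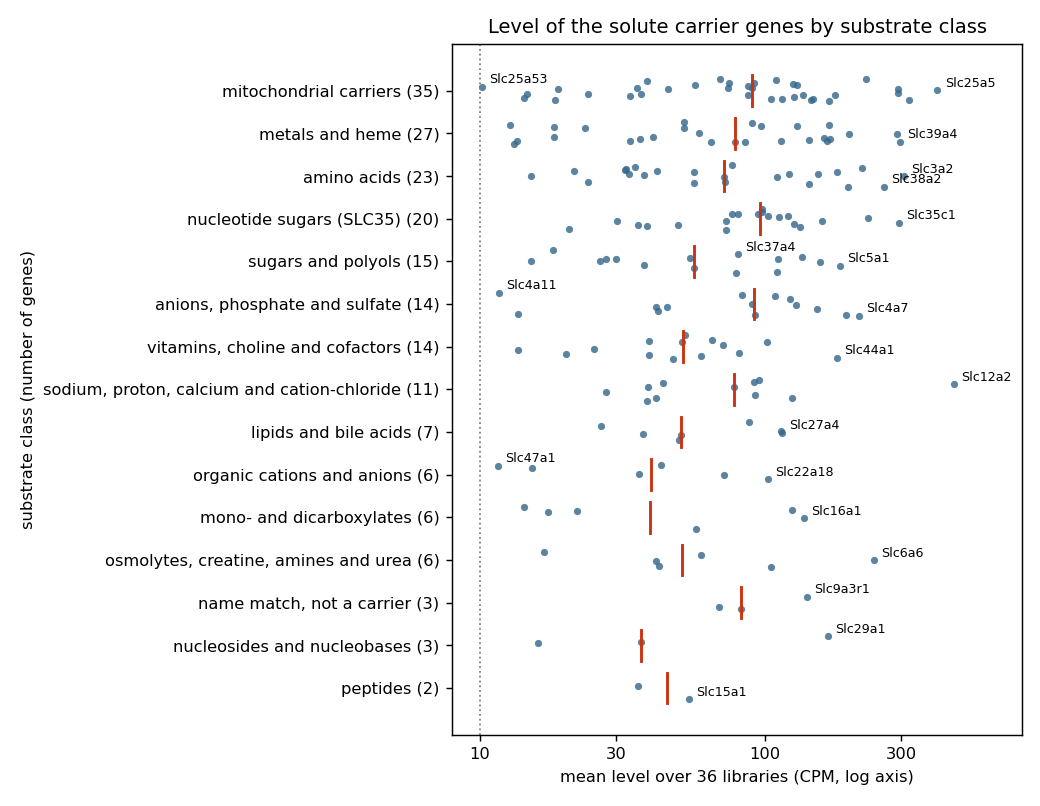
Mean level of each of the 192 solute carrier genes over 36 libraries (CPM, log axis), by substrate class with the number of genes in brackets. Each point is a gene, the red bar is the class median, and the dotted line is the 10 CPM that the choice of genes required. Slc12a2, at 460 CPM, stands farthest to the right.

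The spread among replicates differed from gene to gene. The SD of log2 CPM among replicates, pooled over the 12 groups, had a median of 0.293 over the 192 genes and 0.27 over the 11462 genes tested. It exceeded 0.5 in 35 of the 192 (18.2%) and in 19.6% of all tested genes, so an SD above 0.5 was not more frequent among solute carriers. That comparison did not match genes by level. Against the median of all tested genes of like level, the SD was higher in 118 of the 192, which is most of them. Whether that excess is particular to solute carriers was not tested. By class the median SD was 0.205 for SLC35 genes and 0.253 for mitochondrial carriers, against 0.415 for sugar carriers, of which 7 of 15 exceeded 0.5. The widest were the organic cation exporter Slc47a1 (1.58), the basolateral amino acid exchanger light chain Slc7a8 (1.55), the sugar carrier Slc5a4b (1.30) and Slc2a5 (1.07). At the other end stood the Golgi zinc carrier Slc30a7 (0.084), Slc50a1 (0.11) and Slc25a5 (0.117).

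**Figure D2:**
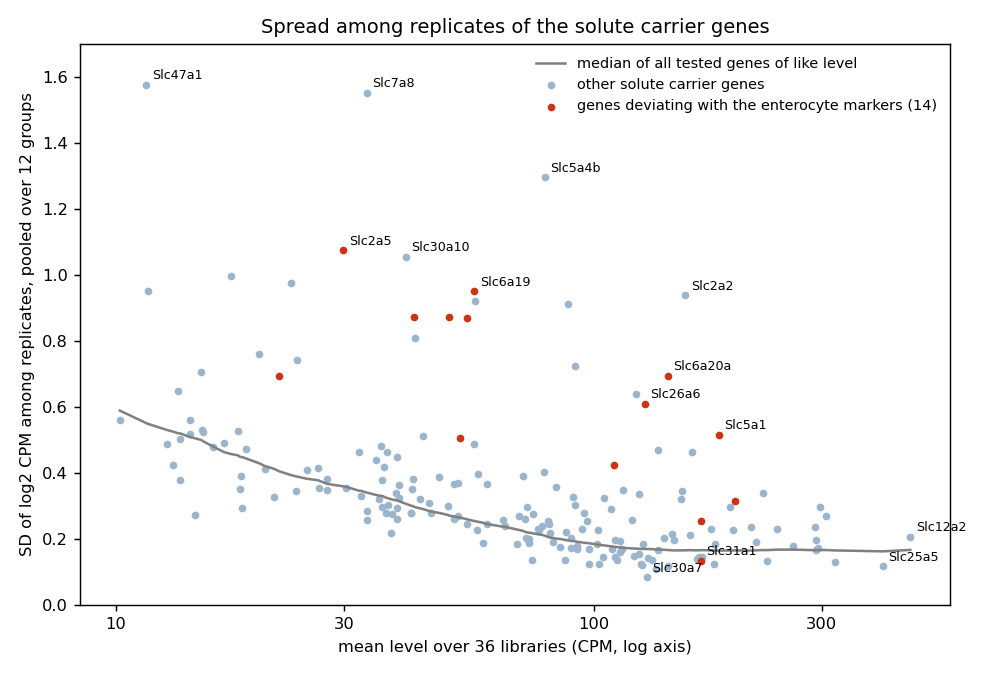
SD of log2 CPM among replicates, pooled over 12 groups, against the mean level over 36 libraries (CPM, log axis) for the 192 solute carrier genes. The grey line is the median of all tested genes of like level. Red points are the 14 genes that deviated with the enterocyte markers, from Slc2a5 at 1.07 down to Slc31a1 at 0.133.

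These deviations were compared with those of the enterocyte markers, a comparison chosen after the spread had been seen. For each gene, the log2 CPM of a library minus the mean of its group was correlated over the 36 libraries with the same deviation of the 19 markers, none of which is a solute carrier gene. Replicate numbers were exchanged within each duration, jointly for 130 and 170 min and jointly for DMSO and 90 min, also at 72 h, where same-numbered DMSO and 90 min libraries did not deviate together. This gives 46656 arrangements and an exact two-sided permutation test with a smallest p of 2.1e-05. The p-values were adjusted over 11443 genes. Of the solute carrier genes 14 passed with r above 0 (7.29%, against 1.63% of all genes) and 4 with r below 0 (2.08%, against 0.306%). Both measures come from the same libraries and are shares of a fixed total, and the part that library depth, composition or other cell types play was not tested.

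The 14 genes included several nutrient carriers of the brush border, while the brush border metal carriers Slc39a4 and Slc11a2 were not among them. Sugar carriers were represented by Slc5a1 and Slc2a5, amino acid carriers by Slc6a20a, Slc7a9 and Slc6a19, and peptides by Slc15a1. Slc51a, a subunit of the basolateral bile acid exporter, the brush border anion exchanger Slc26a6, the bicarbonate carrier Slc4a5, Slc40a1, Slc31a1, the proton-coupled folate carrier Slc46a1, the monocarboxylate carrier family gene Slc16a5 and the mitochondrial ornithine carrier Slc25a15 made up the rest. In all 14 the relation pointed the same way within each duration, and without the 3 libraries lowest in enterocyte markers r stayed at 0.63 or above. Ranks gave the same call for 11 of the 14 and for 3 of the 4 with r below 0.

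Slc5a1 ran from 42 CPM to 349 CPM. At 24 h its lowest, median and highest library held 142.8, 210.3 and 349 CPM, at 48 h 83.28, 188.9 and 216.8 CPM, and at 72 h 42.03, 169.2 and 212.8 CPM. The lowest library at 48 and at 72 h was in each case the one lowest in enterocyte markers at that duration, and the highest library of all was the one highest in them. Its deviations correlated with those of the markers at Pearson r = 0.92 (exact permutation p = 8.6e-05, adjusted 0.0189) and Spearman rho = 0.9 (exact permutation p = 8.6e-05, adjusted 0.0175), and r was 0.89 without the 2 libraries farthest from the median.

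Slc6a20a ran from 19.55 to 313.9 CPM between the same extreme libraries, with r = 0.91 (exact permutation p = 8.6e-05, adjusted 0.0189), rho = 0.88 (adjusted 0.0157) and r = 0.86 without the 2 farthest libraries. Slc15a1 ran from 6.04 CPM in replicate 3 of DMSO at 48 h to 106.7 CPM in replicate 3 of 130 min at 24 h, with r = 0.85 and rho = 0.82 (adjusted p 0.0171 and 0.0157, exact permutation test). Slc51a had r = 0.88 and rho = 0.88, both at the smallest p the permutations allow, and r = 0.81 without the 2 farthest libraries. Slc2a2 had the highest r of all members, 0.93, but its adjusted p was 0.0655 and it did not pass. It stood at 14.99, 20.53 and 21.73 CPM in the 3 libraries lowest in enterocyte markers and at 80.79 CPM or more elsewhere.

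The 4 genes with r below 0 were Slc39a10, a zinc importer of the plasma membrane (r = -0.67), Slc35f6 (r = -0.67), the sodium and proton exchanger Slc9a4 (r = -0.59) and Slc4a11, of the bicarbonate carrier family (r = -0.59). Their rho values were -0.59, -0.71, -0.63 and -0.6, and their adjusted p-values lay between 0.0228 and 0.0493 in the exact permutation test. Without the 2 libraries farthest from the median, r was -0.54, -0.6, -0.55 and -0.54. Slc9a4 stood at 16.8 CPM in the library highest in enterocyte markers and at 266 CPM in the lowest. For Slc25a3, Slc2a1 and Slc3a2, named among the abundant genes above, r was 0.18, 0.11 and 0.34 and did not pass, and over the 192 genes its median was 0.16.

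**Figure D3:**
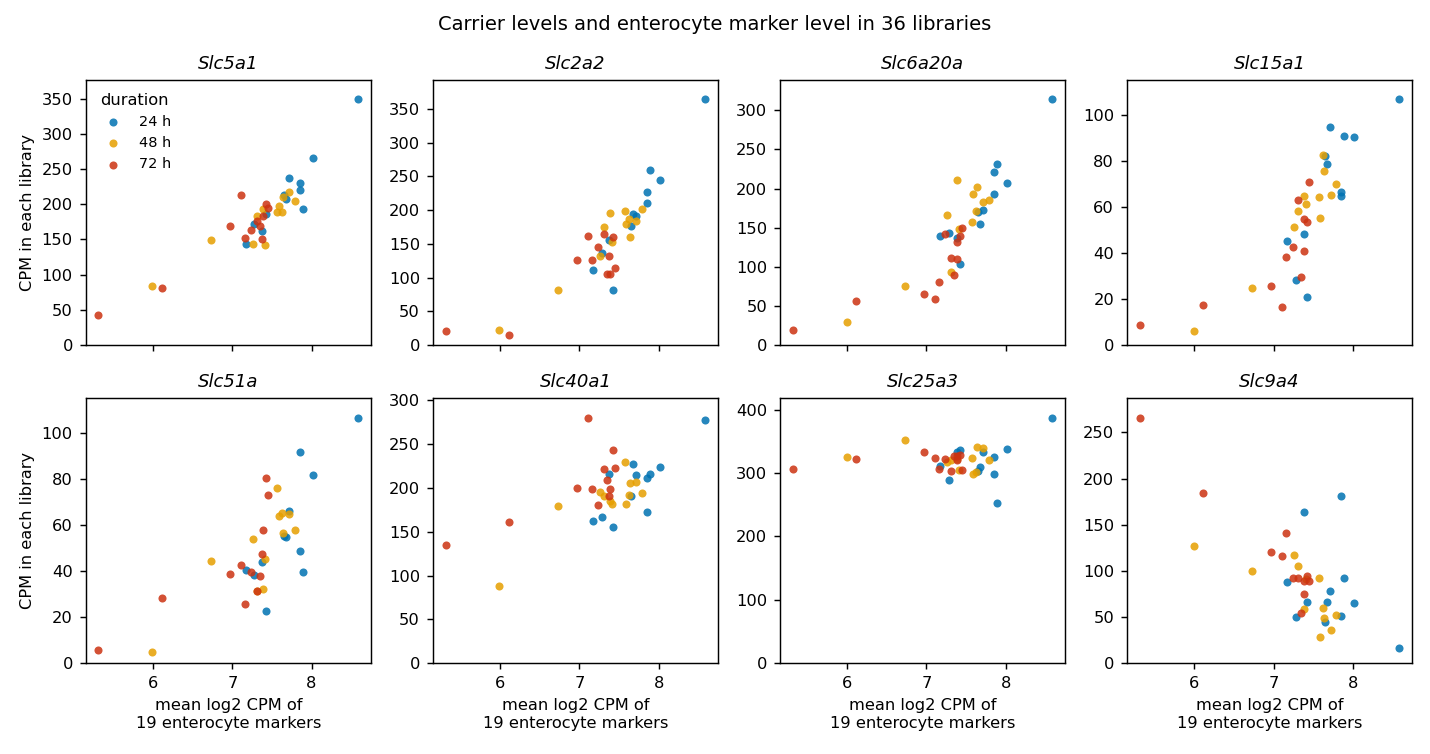
Level of 8 solute carrier genes (CPM, linear axes from 0) against the mean log2 CPM of 19 enterocyte markers, with 1 point per library and 36 libraries per panel, coloured by duration. Slc5a1, Slc2a2, Slc6a20a, Slc15a1, Slc51a and Slc40a1 are higher where the markers are higher, Slc25a3 lies between 252 and 387 CPM throughout, and Slc9a4 is highest where the markers are lowest.

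Promoters of 3 genes are shown because the results turn on them: Slc5a1 and Slc6a20a, which moved with the enterocyte markers, and Slc37a4, the 1 gene past the threshold between durations, described next. Each is the 250 bases before the start site in RefSeq on GRCm38.p6, 5′ to 3′ on the strand of the gene, from a table that holds 146 of the 192 genes, and for Slc37a4 it belongs to the most upstream of 3 starts. Slc5a1 lies at chr5:33103969-33104218 (+), Slc6a20a at chr9:123678833-123679082 (−) and Slc37a4 at chr9:44396696-44396945 (+). Capitals mark GTTAAT, a part of the site bound by HNF1 factors.
Slc5a1: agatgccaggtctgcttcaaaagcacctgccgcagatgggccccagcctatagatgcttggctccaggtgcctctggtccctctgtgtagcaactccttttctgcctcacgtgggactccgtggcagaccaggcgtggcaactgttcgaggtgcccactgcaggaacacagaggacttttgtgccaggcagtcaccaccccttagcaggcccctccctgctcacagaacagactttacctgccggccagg
Slc6a20a: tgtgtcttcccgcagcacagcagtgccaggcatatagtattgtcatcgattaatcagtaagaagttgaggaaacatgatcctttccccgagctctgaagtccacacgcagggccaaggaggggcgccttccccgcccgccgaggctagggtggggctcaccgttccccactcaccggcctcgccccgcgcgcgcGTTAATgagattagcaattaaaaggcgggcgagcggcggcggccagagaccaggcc
Slc37a4: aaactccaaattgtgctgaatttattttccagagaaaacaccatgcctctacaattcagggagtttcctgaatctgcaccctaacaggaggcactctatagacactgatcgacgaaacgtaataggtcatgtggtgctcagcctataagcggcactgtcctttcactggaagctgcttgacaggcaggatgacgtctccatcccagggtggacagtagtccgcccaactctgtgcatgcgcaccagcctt
GTTAAT was found once, 56 bases before the start of Slc6a20a. Searched on both strands, its letters occur in 6.43% of 32851 promoters of this length in the table and in 4.62% of the 195 that belong to the solute carrier genes. The TATA box TATAAA (12.4% and 4.62%), the GATA motif AGATAA (9.99% and 6.67%) and the HNF4 motif CAAAGTCCA (0.384% and 0%) were also searched and had no match in the 3 sequences shown. No motif contains another, and a match is only a match of letters.

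Between 72 and 24 h, averaged over the 4 treatments, 1 of the 192 genes passed edgeR's quasi-likelihood test at a Benjamini-Hochberg adjusted p under 0.05, against 18 of 11462 tested genes (0.157%). It fell, as did 12 genes in all (0.105%); 6 genes rose (0.0523%), none of them a solute carrier gene. This gene was Slc37a4, which carries glucose 6-phosphate into the endoplasmic reticulum for the last step of glucose release. Its level was 53.86, 88.55 and 149.4 CPM (lowest, median and highest of 12 libraries) at 24 h, 66.38, 82.37 and 91.8 CPM at 48 h, and 48.53, 65.69 and 85.23 CPM at 72 h. The durations overlapped. Slc37a4 fell by 0.46 on the log2 scale (SE 0.099, adjusted p 0.0467) and was lower in all 4 treatments. This test took the 12 libraries of a duration as independent. Same-numbered libraries at 130 and 170 min deviated together (r from 0.24 to 0.61), so the SE and p-values between durations may be too small.

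By treatment the change of Slc37a4 was -0.15 in DMSO, -0.14 at 90 min, -0.98 at 130 min and -0.57 at 170 min, and the interaction of treatment and duration was not past the threshold for it (edgeR unadjusted p 0.0965, adjusted p 1). In DMSO the mean was 78.4 CPM (SD 25.1, n = 3) at 24 h and 75.8 CPM (SD 8.85, n = 3) at 72 h. At 130 min it was 108 CPM (SD 35.8, n = 3) at 24 h and 55 CPM (SD 7.9, n = 3) at 72 h, and these 2 groups did not overlap. Leaving out each library in turn kept the call in 19 of 36 fits and lost it in 17, with changes between -0.50 and -0.39 and adjusted p between 0.0194 and 0.126, and it was also lost without the 3 libraries lowest in enterocyte markers (-0.435, adjusted p 0.142). With the replicate number as a block, with the library total as a covariate and with only the 2 durations in the fit, the adjusted p was 0.0543, 0.0516 and 0.0622.

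**Figure D4:**
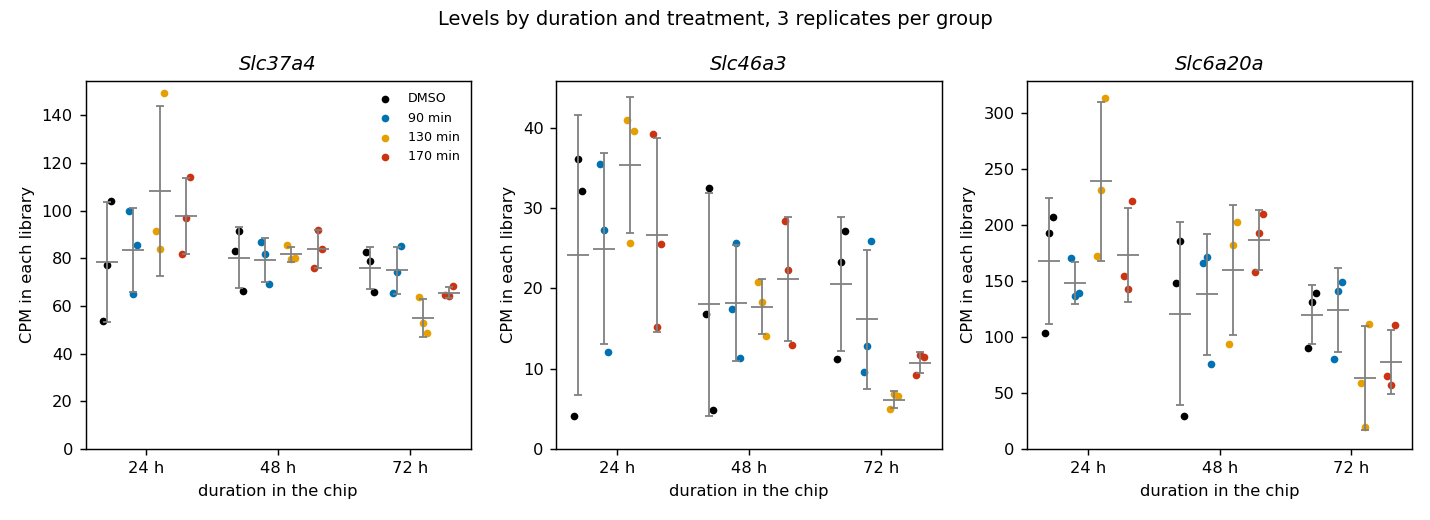
Levels of Slc37a4, Slc46a3 and Slc6a20a (CPM) in each library by duration and treatment, with 3 replicates per group. Grey bars are the group mean and SD. Slc37a4 lies between 48.53 and 85.23 CPM at 72 h and between 53.86 and 149.4 CPM at 24 h.

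The next smallest p-values between 72 and 24 h belonged to genes that did not pass in edgeR. Slc46a3, a lysosomal carrier of the folate carrier family, stood at 4.14, 29.8 and 41 CPM (lowest, median and highest) at 24 h and at 4.91, 11.3 and 27.2 CPM at 72 h, a log2 change of -1.16 (SE 0.273, adjusted p 0.0501). Slc6a20a had medians of 171 CPM at 24 h and 100.1 CPM at 72 h and a change of -0.98 (SE 0.242, adjusted p 0.0715). Slc47a1 had medians of 14 and 2.26 CPM and a change of -2.56 (SE 0.639, adjusted p 0.0715); 5 of the 192 genes, this one among them, had 0 counts in at least 1 library. DESeq2, run as an alternative, called 5 of the 192 genes and 99 genes in all. The 5 were all lower at 72 h: Slc37a4, Slc46a3, Slc47a1, Slc6a20a and Slc7a8, with adjusted p from 0.0107 to 0.046.

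At an unadjusted p under 0.05, 46 of the 192 genes (24%) stood between 72 and 24 h, against 14.8% of all tested genes. Of the 46, 36 had an estimate below 0 and 10 one above 0. The split by direction was not counted for all tested genes, so it cannot be read as particular to solute carrier genes. The sign was the same in all 4 treatments for 31 of the 36 and 3 of the 10. The lower ones included 5 amino acid carriers, 6 anion carriers, 6 SLC35 genes and 4 sugar carriers, and the higher ones included Slc45a3, Slc5a9 and Slc45a4, all of the sugar class. Mean enterocyte marker level was 7.71 at 24 h (SD 0.382, n = 12), 7.33 at 48 h (SD 0.509) and 7.02 at 72 h (SD 0.649). Of the 36 lower genes, 27 had an r above 0.5 with the enterocyte markers in the deviations described above, against 43 of all 192. All 10 higher genes had an r below 0, a share not counted over the 192. Neither share was counted over all tested genes, and r and the changes come from the same libraries. The part of the marker level in the differences between durations was not tested. Without the 3 libraries lowest in those markers, the change was -0.25 in place of -0.46 for Slc5a1, -0.79 in place of -0.98 for Slc6a20a and -0.65 in place of -0.86 for Slc15a1. Replicate 2 of 130 min and replicate 2 of 170 min in this set were taken at 72 h, and none of the set at 24 h. Leaving out libraries low in these genes had to shrink their fall, so no conclusion is drawn from these values.

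By class, the median log2 change from 24 to 72 h was -0.20 over 14 anion carriers and -0.24 over 6 mono- and dicarboxylate carriers, 0.02 over 35 mitochondrial carriers and -0.01 over all 192, beside 0.00 over all tested genes. Over the 15 sugar carriers the median was 0.045, with 9 genes above 0 and 6 below. Their summed level, in which each gene counts by its level, averaged 1194 CPM at 24 h (SD 191, n = 12) and 1030 CPM at 72 h (SD 129, n = 12), and that of mitochondrial carriers 3941 CPM (SD 158) and 3966 CPM (SD 97.2). Slc25a3 had a difference of -0.006 (SE 0.058, interval -0.123 to 0.111) and Slc12a2 one of -0.13 (SE 0.081).

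Genes that work with the carriers were read from a list of 33, of which 24 had enough counts. None was called between durations in edgeR, and 7 had an unadjusted p under 0.05 between 72 and 24 h. They included the fatty acid receptor Cd36 (-1.72, SE 0.483), the chloride channel Cftr (-0.30, SE 0.107) and the water channel Aqp11 (-0.29, SE 0.1), with adjusted p of 0.105, 0.19 and 0.175. Basigin (Bsg), the chaperone of lactate carriers, had a difference of 0.005 (SE 0.074).

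Between 48 and 24 h and between 72 and 48 h, edgeR called 0 of the 192 genes and 0% of all 11462, with DESeq2 also at 0 of the 192, and 23 and 35 of the 192 had an unadjusted p under 0.05 (12% and 18.2%, beside 9.63% and 12.6% of all tested genes). The smallest p-values between 48 and 24 h belonged to Slc44a1 (-0.22, SE 0.056), the zinc carrier Slc30a4 (-0.21, SE 0.062) and the mitochondrial ATP-magnesium and phosphate carrier Slc25a23 (0.48, SE 0.16), at adjusted p from 0.324 to 0.404. Between 72 and 48 h they belonged to Slc46a1 (-0.67, SE 0.188), the sodium and proton exchanger Slc9a2 (0.34, SE 0.102) and Slc47a1 (-2.11, SE 0.653), at adjusted p from 0.195 to 0.249. For Slc46a1 the estimate was below 0 in all 4 treatments.

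**Figure D5:**
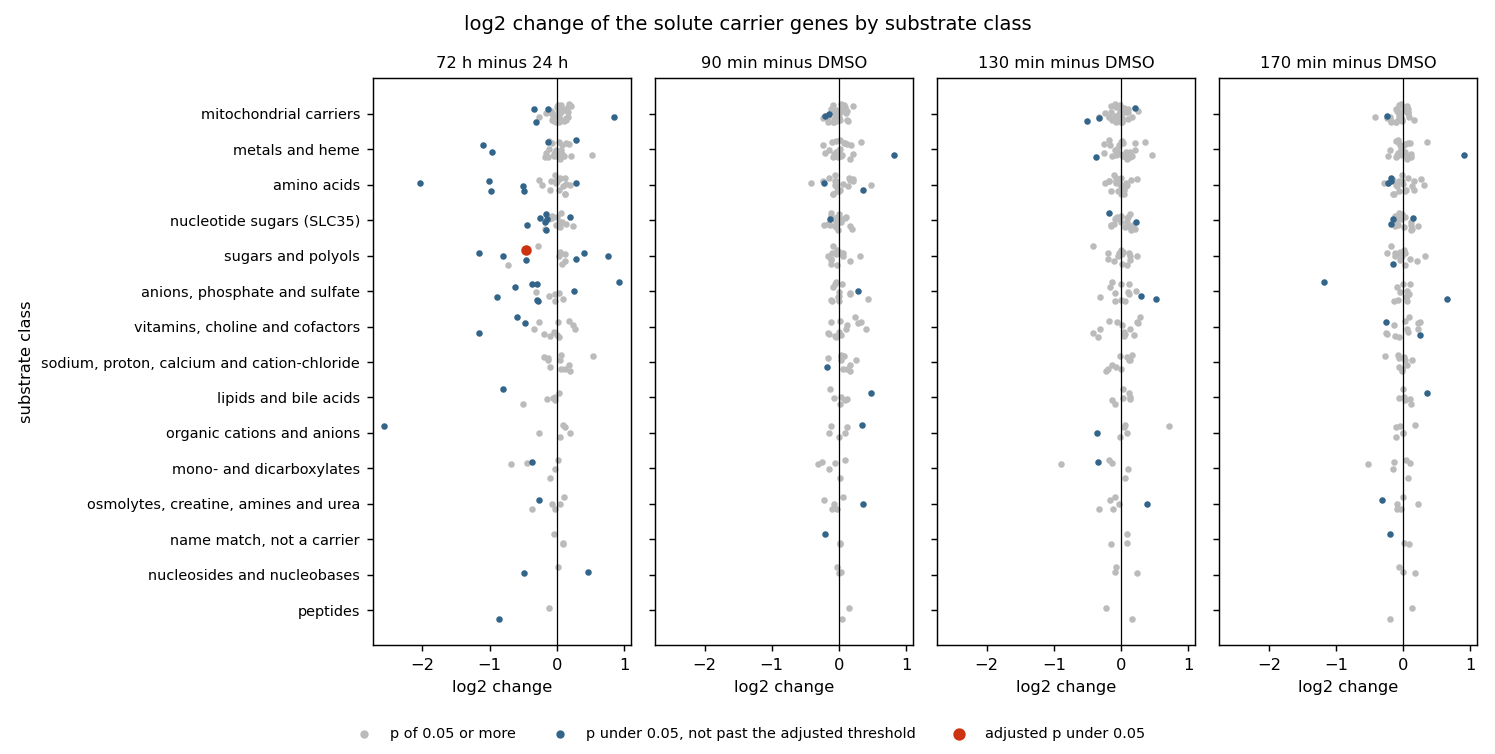
log2 change of each of the 192 solute carrier genes by substrate class for 72 against 24 h averaged over treatments and for each pulse period against DMSO averaged over durations. Grey points have an unadjusted p of 0.05 or more, blue points one under 0.05, and the red point is Slc37a4, at -0.46 the 1 gene past the adjusted threshold in these 4 comparisons.

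Against DMSO, averaged over the 3 durations, no solute carrier gene passed the threshold at any pulse period: edgeR called 0 of 192 and 0% of all tested genes at 90, 130 and 170 min, and DESeq2 also called 0 of 192 in each. At an unadjusted p under 0.05 stood 12, 11 and 16 of the 192 genes, or 6.25%, 5.73% and 8.33%, beside 7.92%, 5.49% and 8.64% of all tested genes. With same-numbered DMSO and 90 min libraries taken as pairs, the count at 90 min was 18, and 0 of the 192 and 1 of all tested genes were called. The pairs were also used at 72 h, where these libraries did not deviate together. The share of all tested genes at an unadjusted p under 0.05 was not counted there, so the 18 cannot be read as particular to solute carrier genes. The 95% interval of the change lay within 1.5-fold in either direction for 149, 142 and 154 of the 192 genes and within 2-fold for 186, 180 and 184. The median change over the 192 was 0.00 at 90 and at 130 min and -0.02 at 170 min.

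Slc1a4, the carrier of alanine, serine and cysteine, had the smallest p at both 90 and 170 min. It averaged 131.9 CPM in DMSO (SD 12.4, n = 9), 115.1 CPM at 90 min (SD 10.1), 123.9 CPM at 130 min (SD 16) and 114.9 CPM at 170 min (SD 9.32). The groups overlapped, since DMSO ran from 115.8 to 151.2 CPM and 90 min from 96.06 to 129.2 CPM. Its change was -0.23 (SE 0.072, adjusted p 0.627) at 90 min and -0.23 (SE 0.072, adjusted p 0.52) at 170 min, below 0 at each duration. These 2 comparisons share the DMSO libraries.

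Other genes with small p-values were the fatty acid carrier Slc27a1 (0.48, SE 0.164) and the zinc carrier Slc30a2 (0.82, SE 0.328) at 90 min, the mitochondrial pyrimidine nucleotide carrier Slc25a36 (0.21, SE 0.066) and the PAPS carrier Slc35b2 (-0.18, SE 0.07) at 130 min, and the sulfate carrier Slc26a11 (0.65, SE 0.213) and the choline carrier-like gene Slc44a4 (-0.26, SE 0.086) at 170 min. Their adjusted p-values were 0.52 or more. Slc25a36 averaged 117.6 CPM in DMSO (SD 8.98, n = 9) and 135.5 CPM at 130 min (SD 9.48, n = 9), and the groups overlapped between 124.4 and 130.6 CPM. For the brush border carriers, mean enterocyte marker level was 7.40 in DMSO (SD 0.584, n = 9), 7.30 at 90 min, 7.40 at 130 min (SD 0.893) and 7.32 at 170 min.

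The periods were also compared with one another, where the dose differs with the period. Of the 192 genes 0 were called in edgeR (0% of all tested genes), and the counts at an unadjusted p under 0.05 were 17 for 90 against 130 min, 20 for 170 against 130 min and 2 for 170 against 90 min. These are 8.85%, 10.4% and 1.04% of the 192, beside 11.8%, 12% and 1.3% of all tested genes. With same-numbered 130 and 170 min libraries taken as pairs, the count for 170 against 130 min was 34. In that fit 0 of the 192 and 0 of all tested genes were called. The share of all tested genes at an unadjusted p under 0.05 was not counted there, so the 34 cannot be read as particular to solute carrier genes. Slc16a1, Slc9a3r1 and Slc35f5 had differences from 130 min of -0.26 (SE 0.079), -0.305 (SE 0.091) and -0.30 (SE 0.085) at 90 min and of -0.27 (SE 0.078), -0.29 (SE 0.09) and -0.25 (SE 0.084) at 170 min. Their adjusted p-values lay between 0.271 and 0.305, and both comparisons share the 130 min libraries. Slc16a1 averaged 149.3 CPM at 130 min (SD 17.9, n = 9), 129.3 CPM at 90 min (SD 11.2), 128.4 CPM at 170 min (SD 11.3) and 139.5 CPM in DMSO (SD 12.9). Between 170 and 90 min the smallest p belonged to Slc4a11 (-1.14, SE 0.469, adjusted p 1).

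At single durations, with 3 libraries against 3, edgeR called 0 of the 192 genes and 0% of all genes in each of the 9 comparisons of a period with DMSO. The count at an unadjusted p under 0.05 was 31 of 192 for 130 min at 72 h (16.1%, beside 10.3% of all tested genes), and 21 or fewer in the other 8 comparisons. Of the 31, 23 were lower and 8 higher, a split that was not counted for all tested genes. The intervals were wider here: in the comparison of 130 min with DMSO at 72 h, 76 of the 192 lay within 1.5-fold. The group at 130 min and 72 h holds the library lowest in enterocyte markers. The group at 170 min and 72 h holds another of the 3 lowest, and its count was 5 of 192 (2.6%, beside 2.17% of all tested genes). The part of the marker level in these counts was not tested. The joint test of treatment and duration called 0 of the 192 genes and 0% of all genes, with 3 of 192 (1.56%, beside 2.37% of all tested genes) at an unadjusted p under 0.05: Slc4a11 (0.013), the glutamate carrier Slc1a1 (0.0149) and the vitamin C carrier Slc23a2 (0.0311).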

How the data were processed

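RNA of 36 organoid samples was counted with Sort-seq, per the labels' protocols. The authors deposited raw UMI counts, which are whole numbers; STAR 2.7.8a and UMI-tools 1.1.1 are named in the submitters' processing notes, with genome build, annotation and strand setting not given in the sources used here. Slc7a6 and Slc7a6os overlap on opposite strands. Whether these or related genes such as Slc25a4 and Slc25a5 share reads was not tested.

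Tests used edgeR 4.0.16 in R 4.3.3: filterByExpr (11462 of 34197 genes kept, all 192 members among them), TMM, 1 mean per group in 12 groups (24 residual degrees of freedom, biological coefficient of variation 0.145) and robust quasi-likelihood F tests, adjusted by Benjamini-Hochberg over all tested genes. log2 CPM used a prior count of 1. Alternatives were RLE scaling, no filter, replicate blocks, the log2 library total as a covariate, DESeq2 1.42.0, other level limits and libraries left out. The test was also run on simulated counts, drawn independently for each library. That run could not check the effect of libraries that deviate together, and no conclusion is drawn from it. Total counts limit the precision of genes near 10 CPM.

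The genes, their classes and all lists were chosen with earlier results of these data known. Named were the members past the threshold or, where none was, the 3 with the smallest p, the 3 most abundant of each class and a panel of 41 carriers. Genes named for their spread, for their relation to the enterocyte markers, or in alternatives were chosen after their values were seen, as was the relation itself. Some genes that the rule names are not reported here.

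Over 36 replicate pairs no 2 libraries agreed within sampling noise (lowest chi-square per gene 1.262). Same-numbered libraries at 130 and 170 min deviated together at every duration (r from 0.24 to 0.61), and those of DMSO and 90 min did at 24 and 48 h (r from 0.14 to 0.5) but not at 72 h (r from 0.08 to 0.1). For these pairs the replicate number was taken as pairing from the data, since the labels do not state what it marks. The main tests did not use this pairing and took all libraries as independent. Other groups shared only a number.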

Additional observations from a re-analysis of the deposited data

How the results depend on the processing

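The count of solute carrier genes called between 72 and 24 h, 1 in edgeR, was 0 with the replicate block, with the log2 library total as a covariate, with only the 2 durations compared, and without the 3 libraries lowest in enterocyte markers, a setting chosen after seeing the data. It was 5 with DESeq2 (99 genes in all, against 18 in edgeR), 9 with no filter on low counts (304 genes in all; 2 higher and 7 lower), and 2 when a mean of 5 CPM admitted a gene, the second being Slc5a11. Leaving out replicates gave 0 to 5: without replicate 3 of each group 4 genes passed (Slc13a1, Slc6a19, Slc6a20a and Slc7a9), and 5 passed without replicate 1 of 130 min at 24 h or replicate 3 of 130 min at 72 h. Between 72 and 48 h the count was 0 in edgeR, 3 with no filter (Slc26a2, Slc4a11 and Slc9a2, all higher) and 0 to 8 with replicates left out, the 8, all lower, without replicate 3. At single durations it was 0, 2 with no filter (Slc25a24 and Slc4a11) and 0 to 1 with replicates left out, the 1 being Slc13a1. The interaction had 1 call, Slc4a11, with no filter. Of the transport partners, 1 was called with no filter (Aqp11), with DESeq2 (Cd36) and without replicate 3 (Cd36), which gives 0 to 1 with replicates left out. The cause of these differences was not tested. Where the number of all genes called is not given beside a count, the count cannot be read as particular to solute carrier genes. The replicate block left the number of solute carrier genes called at 0 in every other comparison. With libraries taken as pairs, the number at an unadjusted p under 0.05 for 90 min against DMSO was 21, 6 and 4 at 24, 48 and 72 h, in place of 13, 3 and 1. The share of all tested genes at that p was not counted in the paired fits. Slc37a4 had adjusted p 0.0543 with the replicate block, 0.0132 with DESeq2 and 0.302 without replicate 3. Of 656 values of single genes under alternatives, 618 kept their direction and side of the threshold, 11 newly passed, 7 no longer passed, 20 moved and 0 reversed past the threshold. The 7 that no longer passed were all Slc37a4 between 72 and 24 h, the 1 value past the threshold in the main fit. No other value had passed there, so the 618 do not measure how well a call holds. With totals from 482741 counts, genes near 10 CPM rest on few counts.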
